A study of Mus musculus with 8 samples.

Results

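Chil3, Retnla, Arg1, Mrc1, Clec10a, Mgl2, Il4ra, Il13ra1 and Stat6 were chosen by name as genes of alternative macrophage activation, and they are 9 of the 32285 genes in the count table. Single-cell RNA profiles came from the lungs of 5-day-old C57BL6/J mouse pups, titled WT by the submitters. All pups, the air controls included, had been exposed to lipopolysaccharide (LPS), a component of bacterial cell walls, at day 14 of gestation. From birth they breathed 21% O2 (Air, labelled healthy, 4 libraries) or 65% O2 (Hyperoxia, a model of bronchopulmonary dysplasia, 4 libraries). Frozen lungs were thawed, and immune, epithelial and endothelial cells were isolated by flow cytometry, so the sort set the proportions of these cells. No group without LPS was among the libraries, and the number of pups behind a library is not stated in the labels. The table pooled the libraries, and 0 of 8 library titles matched a column name, so no cell could be placed in air or hyperoxia and those groups were not compared. The question addressed here is in which lung cells the genes of this response were found.

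Macrophages exposed to the type 2 cytokines Il4 and Il13 switch to a state called alternative activation, which is known for tissue repair, parasite defence and the control of inflammation. Il4 binds a receptor built from Il4ra and the common gamma chain Il2rg, and both cytokines bind a receptor built from Il4ra and Il13ra1. These receptors act through Jak kinases on the transcription factor Stat6, which then drives genes such as Arg1, Retnla, Chil3, Mrc1, Clec10a and Mgl2. In the lung, Mrc1 and Chil3 are also part of the normal programme of alveolar macrophages, the resident phagocytes of the airspace.

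In all there were 11806 cells, with medians of 4425 unique molecular identifiers (UMIs, each standing for 1 captured molecule) and 1815 genes per cell. The column names fell into 8 alphabetical runs of barcodes with 282 to 3355 cells, 2574027 to 17841702 UMIs and medians of 3246 to 11587 UMIs per cell. Since no run can be taken as a replicate, values per run show spread only, and 12 barcodes occurred in more than 1 run. Cells were put into 9 groups by gates on defining genes and into a remainder called other. AT2 cells, the surfactant-producing alveolar epithelium, had at least 3% of UMIs from Sftpc (737 cells), and AT1 cells, the flat gas-exchange epithelium, at least 3 UMIs of Rtkn2 (118 cells). Endothelium had at least 2 UMIs of Cdh5 and Cldn5 together (601 cells), alveolar macrophages at least 2 of Ear1 and Marco (962), interstitial macrophages at least 5 of C1qa and C1qb (366) and inflammatory macrophages at least 5 of Inhba and Saa3 (211). Monocytes had at least 3 UMIs of Ly6c2 and F13a1 or at least 2 of Ace and Adgre4 (3286 cells). Neutrophils had at least 2% of UMIs from S100a8 and S100a9 with at least 1 UMI of Csf3r (328), and T cells at least 2 UMIs of Cd3e and Trac (609). The remaining 4588 cells, 38.9%, passed no gate. A cell that passed several gates, as 661 cells did, went to the first in this order.

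Markers that the gates did not use were highest in the named group for 5 of 5 AT2, AT1, endothelial and T cell genes, for 6 of 6 interstitial macrophage and neutrophil genes, for 5 of 6 alveolar macrophage genes and for 5 of 7 monocyte genes. Only 3 of 5 markers did so for the inflammatory macrophage gate, and their summed level was higher in neutrophils (1449 against 1103 CPM), so that name stands for its gate genes. The AT1, T and other groups also held Dppa5a, a gene of pluripotent cells, at 2294, 1299 and 1540 CPM. The remainder held alveolar macrophage markers at a summed 386 CPM, against 1871 CPM in the gated alveolar macrophages. Levels are given as CPM, the UMIs of a gene divided by all UMIs of the group and multiplied by 1000000, with exact Poisson 95% intervals that cover counting error only. There is 1 pooled sample, so no test between groups was made and no p-value is given. Levels are compared between groups for the same gene and not between genes.

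The effector genes were found in different cells, and only some of those were macrophages. Among the 10 groups, 5 of the 9 members were highest in a macrophage group: Chil3 and Mrc1 in alveolar, Clec10a and Mgl2 in interstitial and Arg1 in inflammatory macrophages. Dendritic cells had no gate of their own. In the remainder, 113 cells with dendritic genes held Mgl2 at 90.5 CPM, against 29.3 in interstitial macrophages. They held Clec10a at 28.8 against 17.0 CPM, with overlapping intervals. Retnla was found almost only in AT2 cells, Il4ra was highest in endothelium, and Il13ra1 and Stat6 were highest in neutrophils. Of the 8 members with at least 20 CPM in their leading group, 4 led in a macrophage group, where 17.9% of the 10329 genes at that level did. Chil3, Retnla, Arg1, Mrc1 and Mgl2, 5 of these 8, exceeded all other cells at least 4-fold, against 28.2% of the same genes. The median fold over all other cells was 7.20 for the 8 members and 2.27 for all genes tested. Clec10a stayed under 20 CPM in every group and is in neither count over 8.

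**Figure D1:**
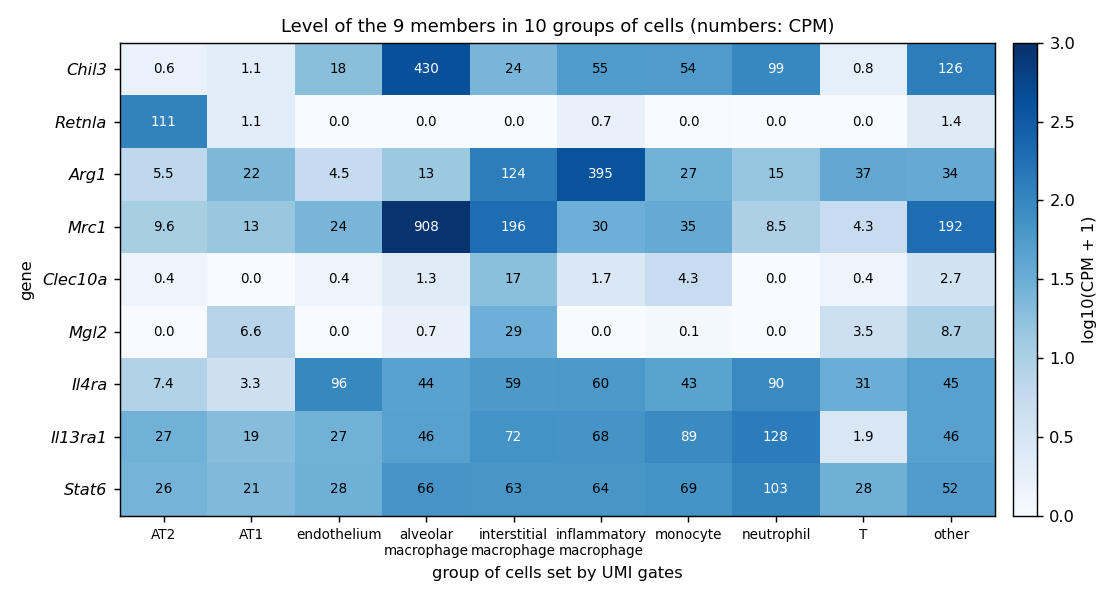
CPM of the 9 members (rows) in the 10 groups of cells (columns), written in each field, with colour on a log10(CPM + 1) scale. The highest value of each row stands under alveolar macrophage for Chil3 (430) and Mrc1 (908), under AT2 for Retnla (111), under inflammatory macrophage for Arg1 (395), under interstitial macrophage for Clec10a and Mgl2, under endothelium for Il4ra, and under neutrophil for Il13ra1 and Stat6.

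The sequences before the gene starts are shown for 3 effectors that led in different ways: Retnla, found in few AT2 cells, Chil3, found in a minority of alveolar macrophages, and Mrc1, found in nearly all of them. They are RefSeq promoter stretches of GRCm38.p6, the assembly also called mm10, printed 5′ to 3′ on the strand of the gene and ending just before the earlier of its RefSeq and GENCODE starts. Capitals mark matches to motifs of factors named in this response, searched on both strands: TTC and GAA with 4 bases between them for Stat6, the same with 3 bases between them for other STAT dimers, TTGCNNAA for C/EBP factors and GAGGAA for the myeloid factor PU.1, which reads TTCCTC where it lies on the other strand.
Retnla, chr16:48842359-48842550, plus strand: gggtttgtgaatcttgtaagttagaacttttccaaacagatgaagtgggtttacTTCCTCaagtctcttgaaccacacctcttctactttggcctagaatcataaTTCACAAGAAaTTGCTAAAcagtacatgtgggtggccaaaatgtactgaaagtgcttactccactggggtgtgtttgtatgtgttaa
Chil3, chr3:106167565-106167814, minus strand: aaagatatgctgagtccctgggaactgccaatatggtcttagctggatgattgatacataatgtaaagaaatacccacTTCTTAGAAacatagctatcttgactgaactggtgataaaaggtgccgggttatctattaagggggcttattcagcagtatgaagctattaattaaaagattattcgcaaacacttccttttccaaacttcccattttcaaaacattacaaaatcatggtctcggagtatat
Mrc1, chr2:14229164-14229391, plus strand: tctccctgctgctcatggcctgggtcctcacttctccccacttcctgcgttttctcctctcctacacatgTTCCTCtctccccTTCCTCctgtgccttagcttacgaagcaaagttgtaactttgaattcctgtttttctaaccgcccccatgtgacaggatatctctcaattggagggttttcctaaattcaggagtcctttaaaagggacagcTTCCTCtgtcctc

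The Retnla stretch held the Stat6 motif as TTCACAAGAA, 145 to 136 bases before the RefSeq start, and next to it the C/EBP motif as TTGCTAAA, 134 to 127 bases before it. In Chil3 the shorter STAT motif was read as TTCTTAGAA, 172 to 164 bases before the start, and Mrc1 held the PU.1 motif 3 times and no STAT motif. Promoters were matched for 7 members, all but Arg1 and Clec10a, and among them the Stat6 motif was found for Retnla alone and the PU.1 motif for Retnla, Mrc1, Mgl2 and Stat6. Over the 250 bases before the start of 32851 promoters, 5.85% held the Stat6 motif, 7.02% the shorter STAT motif, 9.56% the C/EBP motif and 23.3% the PU.1 motif. The motif CAAGTG of the lung factor NKX2-1, held by 11.6% of promoters, was found for 0 of the 7, and the TATA box TATAAA, held by 12.4%, for Retnla, 30 to 25 bases before its start and past the printed stretch. A match describes letters in this window and is not evidence of binding.

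Chil3 encodes Ym1, a secreted chitinase-like protein that binds sugars and forms crystals in type 2 lung inflammation (chromosome 3, 106147554 to 106167564, minus strand in mm10). Its level was 430 CPM (416 to 444) in alveolar macrophages, 126 in the remainder, 99.4 in neutrophils, 55.1 in inflammatory macrophages and 53.8 in monocytes. The intervals of inflammatory macrophages and monocytes overlapped. Interstitial macrophages held 24.4 CPM, or 13.2 without run 6, while AT1, T and AT2 cells held at most 1.10. The 17.7 CPM in endothelium came from 6 cells, of which 1 cell of run 1 held 38 of the 43 UMIs, and it was 0.544 without run 1. Alveolar macrophages were above the remainder by 3.42-fold (3.26 to 3.58) and above all other cells together by 6.08-fold (5.82 to 6.34).

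Across 8 runs, Chil3 in alveolar macrophages had a lowest value of 293 CPM in run 7, a median of 368 and a highest value of 898 in run 8, and it exceeded the remainder in 8 of 8 runs. In run 1 the 2 groups were close, at 401 and 367 CPM. Leaving out run 1 raised the log2 ratio of alveolar macrophages over the remainder from 1.77 to 2.46. In the 13 neutrophils of run 8 Chil3 reached 513 CPM, while the 5 runs with enough neutrophils had a median of 67.3. Leaving out run 1 also moved the lower groups, to 78.5 CPM in the remainder, 157 in neutrophils, 85.1 in inflammatory macrophages and 34.1 in monocytes.

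Chil3 was concentrated in few cells. Of the 962 alveolar macrophages, 351 (36.5%) had a Chil3 UMI, 38 cells held 50% of its UMIs and the highest cell held 182. After thinning every cell to 2000 UMIs, which removes differences in depth, 24.7% of alveolar macrophages (exact 95% interval 22.0 to 27.6) had a Chil3 UMI, against 0 of 588 T cells, which allows a share of up to 0.510% in cells not known to express it. Cells with Chil3 also held more Marco, a scavenger receptor and gate gene, at 479 against 336 CPM, and somewhat more Mrc1, at 959 against 876 CPM, with median depths of 8354 and 7139 UMIs. Within the gate, cells with both Ear1 and Marco held 497 CPM of Chil3, cells with Ear1 alone 412 and cells with Marco alone 190. These splits, and those of the remainder and of the monocytes below, were chosen after values had been seen.

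Outside the gate, most Chil3 of the remainder came from 1083 cells with at least 2 UMIs of Plet1, a marker of alveolar macrophages, which held 2484 of its 3259 UMIs there at 331 CPM. Run 1 held 1238 of these 2484 UMIs, and without run 1 the Plet1 cells held 198 CPM. The gate of Ear1 and Marco thus took in only some of the cells with that marker. Among monocytes, the Ly6c2 and F13a1 arm, genes of classical monocytes, held 80.0 CPM (73.6 to 86.8) and the Ace and Adgre4 arm, genes of nonclassical monocytes, 49.8 CPM (45.5 to 54.4). The order of the arms differed by run: the first was higher in 4 of 8 runs and the second in the other 4, and without run 1 the first held 44.5 CPM. Chil4, the near copy of Chil3, was at 0 UMIs in all groups. The 2 transcripts are 94.4% identical over 1538 aligned bases and 90.0% over 299 of their last 300 bases, the part a 3' kit reads, and how reads shared between them were assigned is not stated by any source used, so the split between them is uncertain.

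Mrc1 encodes the mannose receptor CD206, an endocytic receptor for sugars on microbes and glycoproteins (chromosome 2, 14229392 to 14332057, plus strand). It was at 908 CPM (888 to 929) in alveolar macrophages, 196 (182 to 210) in interstitial macrophages and 192 (187 to 197) in the remainder, and the last 2 did not differ beyond their intervals. Monocytes followed at 34.6 CPM, inflammatory macrophages at 29.8, which became 45.9 without run 1 and 18.8 without run 8, and endothelium at 23.9, again with overlapping intervals between neighbours. AT1 cells, AT2 cells, neutrophils and T cells held 4.33 to 13.2 CPM. The level in alveolar macrophages was 4.64-fold that in interstitial macrophages (4.31 to 5.00).

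Unlike Chil3, Mrc1 was spread over nearly the whole group: 897 of 962 alveolar macrophages (93.2%) had a UMI, and 162 cells were needed to reach 50% of its UMIs. After thinning, 73.4% of alveolar macrophages (70.5 to 76.2) and 28.7% of interstitial macrophages (24.0 to 33.7) had a UMI, against 0.680% of T cells. The runs ranged from 658 CPM in run 6 to 1544 in run 2 with a median of 841 in alveolar macrophages, and from 134 to 368 CPM with a median of 221 in interstitial macrophages, so the groups did not overlap. Of the remainder, the cells with Plet1 held 518 CPM of Mrc1. In monocytes Mrc1 was at 64.0 CPM (59.1 to 69.1) in the Ace and Adgre4 arm and at 4.58 CPM (3.15 to 6.43) in the Ly6c2 and F13a1 arm, and the first was higher in 8 of 8 runs. The higher level came from 136 of the 2023 cells of that arm, and in run 6 a single cell held 70 of 120 UMIs. Over all groups, 65.4% of the cells with Chil3 also had Mrc1, and 26.1% of the cells with Mrc1 had Chil3.

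**Figure D2:**
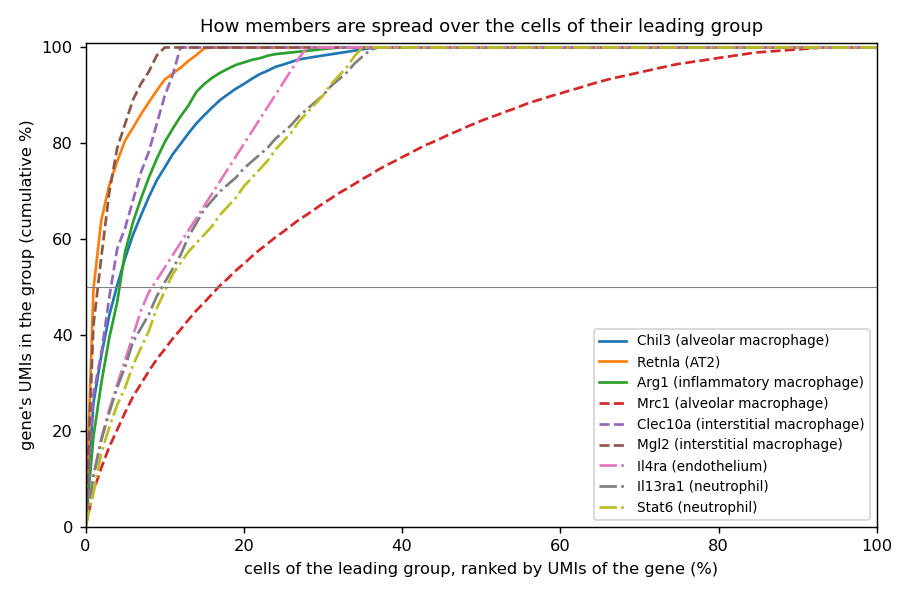
Cumulative share of the UMIs of each member in its leading group (vertical axis, %) against the cells of that group ranked from the highest (horizontal axis, %). The grey line marks 50%, which Retnla reached with 1.09% of AT2 cells, Mgl2 with 1.64% of interstitial macrophages and Mrc1 with 16.8% of alveolar macrophages.

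Retnla encodes resistin-like alpha, also called Fizz1, a small secreted protein that macrophages and lung epithelium are known to make in type 2 inflammation (chromosome 16, 48842551 to 48844461, plus strand). It was found in AT2 cells at 111 CPM (102 to 121), which held 567 of its 606 UMIs, or 93.6%. The remainder held 1.35 CPM, AT1 cells 1.10, inflammatory macrophages 0.684 and monocytes 0.0486. In alveolar macrophages, interstitial macrophages, neutrophils, endothelium and T cells the count was 0. For alveolar macrophages this allows a level of up to 0.348 CPM, and after thinning, 0 of 951 cells had a UMI, which allows a share of up to 0.315%. AT2 cells lay 82.1-fold above the remainder (58.4 to 119) and 205-fold above all other cells (148 to 291).

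The level in AT2 cells differed widely between runs, with 6.10 CPM in run 2, a median of 78.3 and 228 CPM in run 1, and all 8 runs were above the remainder. Run 2 rests on 2 UMIs in 20 AT2 cells. Without run 6, the log2 ratio of AT2 cells over the remainder rose from 6.36 to 7.45. Few cells carried the transcript: 112 of 737 AT2 cells (15.2%) had a UMI, 8 cells held 50% of them and the highest cell held 88. Without the 10 highest cells, which came from 5 runs, the level was 49.8 CPM. After thinning, 9.40% of AT2 cells (7.25 to 11.9) had a Retnla UMI.

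AT2 cells with Retnla held more Il33, an alarmin that starts type 2 responses, at 354 CPM (320 to 391) against 201 (187 to 215) in those without, and more Chil1, a chitinase-like relative of Chil3, at 2076 against 1184 CPM. Without run 1 the Il33 gap was smaller, at 271 against 205 CPM, and Chil1 was at 1934 against 1093 CPM. The surfactant gene Sftpb, at 7464 against 7687 CPM, and Lamp3, a lamellar body gene at 1482 against 1465 CPM, were close in both. Scgb1a1, the defining gene of secretory airway cells, was at 22.6 CPM (14.6 to 33.4) with Retnla and at 16.2 CPM (12.5 to 20.7) without it. The cells with Retnla were deeper, with a median of 7575 against 4382 UMIs, and the part of depth in these differences was not tested. Outside the AT2 gate, 39 Retnla UMIs were found in 19 cells. Of these cells, 9 had at least 1% of UMIs from Sftpc, as did 112 of all cells outside the gate, and they held 21 of the 39 UMIs.

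Arg1 encodes arginase 1, which splits arginine into ornithine and urea and competes for it with the nitric oxide synthase Nos2 (chromosome 10, 24915221 to 24927484, minus strand). Among the 10 groups, it was highest in inflammatory macrophages, at 395 CPM (372 to 418), and next in interstitial macrophages, at 124 CPM (114 to 136). T cells at 37.1, the remainder at 33.7, monocytes at 26.7 and AT1 cells at 22.0 CPM followed, and T cells and the remainder did not differ beyond their intervals. Neutrophils held 14.6 CPM, alveolar macrophages 12.5, AT2 cells 5.48 and endothelium 4.53. Several of these lower levels rested on 1 run. All 20 UMIs in AT1 cells came from run 6, and without run 1 T cells held 20.7 CPM, interstitial macrophages 33.6 and neutrophils 3.42. Without run 6 monocytes held 16.6 CPM, and without run 8 alveolar macrophages held 3.94 and endothelium 2.10. The inflammatory group exceeded all other cells by 12.7-fold (11.9 to 13.7) and interstitial macrophages by 3.17-fold (2.86 to 3.53).

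Inflammatory macrophages reached 10 cells in 3 runs, with 115 cells in run 1, 60 in run 6 and 25 in run 8, and Arg1 was at 369, 428 and 592 CPM there. Interstitial macrophages held 243 CPM in run 1, 68.7 in run 6, 6.98 in run 3 and 0 in runs 4, 5 and 7. The size of the lead over interstitial macrophages depended on run 1: the log2 ratio was 1.67 in all runs and 3.68 without run 1. It was 2.61 when the inflammatory gate was applied first, 2.51 without cells that passed more than 1 gate, 2.55 with gates on thinned cells and 2.29 with doubled gate minimums. The 15 interstitial macrophages that also passed the inflammatory gate held 250 of the 504 Arg1 UMIs, at 673 CPM, and the other 351 held 69.0 CPM. Both values rest largely on run 1, which held 13 of the 15 cells and 427 of the 504 UMIs. Without run 1, interstitial macrophages that did not pass the inflammatory gate held 33.5 CPM.

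Arg1 outside the inflammatory group also differed by run. All other cells held 74.1 CPM in run 1, 49.3 in run 6 and 150 in run 8, and 2.49 to 5.81 CPM in the 5 other runs. Inflammatory macrophages made up 7.32%, 3.50% and 7.46% of the cells in runs 1, 6 and 8 and at most 0.499% in the others. The gate gene Saa3 outside the group was at 88.3, 12.1 and 24.3 CPM in runs 1, 6 and 8 and at 1.89 to 8.46 CPM in the others. Free RNA from the inflammatory cells and true expression in other cells were not told apart, and their part in these levels was not tested. In the 6 alveolar macrophages that also passed the inflammatory gate Arg1 was at 479 CPM, and these cells held 72 of the 108 Arg1 UMIs of that group. Only 3 of them had a UMI and 1 cell held 67, so this level rests on a single cell.

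**Figure D3:**
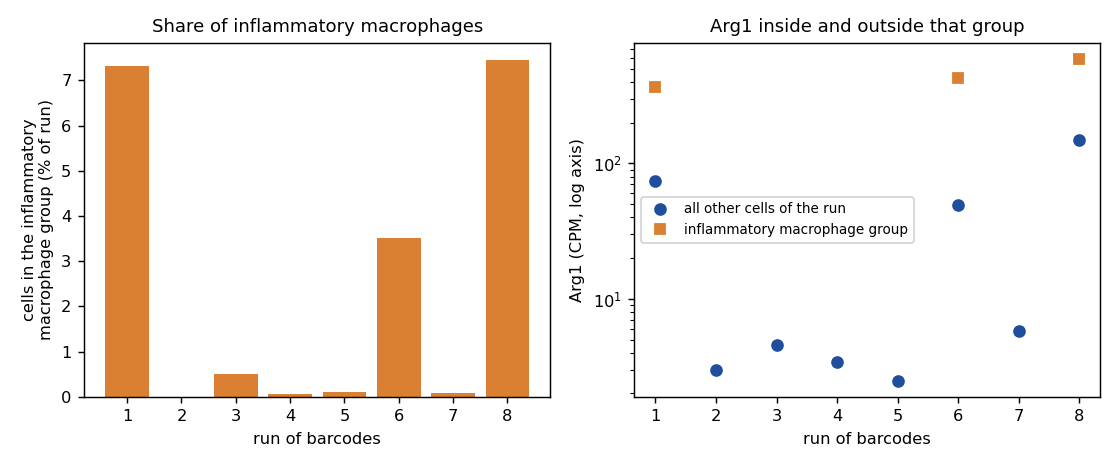
Left, share of each run's cells in the inflammatory macrophage group (%). Right, Arg1 in that group (orange squares, runs with at least 10 such cells) and in all other cells of the run (blue circles), in CPM on a log axis. Runs 1, 6 and 8 hold the group and have 49.3 to 150 CPM outside it, while the other runs have 2.49 to 5.81.

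A minority of inflammatory macrophages carried Arg1. A UMI was found in 67 of 211 cells (31.8%), 9 cells held 50% of the UMIs, and without the 10 highest cells the level was 197 CPM. After thinning, 18.7% (13.6 to 24.6) had a UMI, against 0.526% of alveolar macrophages. Cells that passed the gate with fewer than 5 Inhba UMIs, and thus needed Saa3 UMIs to reach its minimum, held 611 CPM (565 to 661). Those with at least 5 Inhba UMIs held 274 CPM (251 to 299). Without run 1 the first became 928 CPM, from 21 cells. Cells with Arg1 had more Fn1, an extracellular matrix gene (2387 against 1517), Trem2, a lipid receptor (289 against 179), and Ly6c2, a gene of classical monocytes (248 against 89.3).

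Nos2, the enzyme of classical activation, was at 15.6 CPM (9.11 to 25.0) in inflammatory macrophages with Arg1 and at 50.7 CPM (40.9 to 62.1) in those without. Without run 6 the Nos2 values were 16.2 and 35.5 CPM, and without run 1 they were 7.42 and 59.2. For the cytokine Il6 the values were 29.4 and 109 CPM. They were 37.0 and 64.9 without run 6, and 4.94 and 160 without run 1. Each rests on few cells, since Nos2 was found in 4.48% of the cells with Arg1 and in 5.56% of those without. Over all groups 511 of 11806 cells had Arg1 and 78 had Nos2, and 8 had both, which is 10.3% of the cells with Nos2. After thinning, 2 of 40 cells with Nos2 had Arg1, against 245 of all 10383 cells. Over all cells these counts thus show no avoidance of the 2 genes. Within the inflammatory macrophages, the cells with Arg1 had a median of 15432 UMIs and those without 10964.5.

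Arg1 was also found in cells that are not macrophages. In the remainder, 64 cells with at least 3 UMIs of Gata3 and Il1rl1, genes of type 2 innate lymphoid cells, held 304 CPM (254 to 361), and 40 of them had a UMI. That level was above the 124 CPM of interstitial macrophages. Run 7 held 31 of these cells, at 428 CPM, while all cells of run 7 outside the inflammatory group held 5.81. In this gate 0 UMIs of Chil3, Retnla, Mrc1, Clec10a, Mgl2 and Il13ra1 were found, a count that allows up to 6.97 CPM of each. Among monocytes, the Ly6c2 and F13a1 arm held 64.1 CPM (58.4 to 70.2) and the Ace and Adgre4 arm 7.37 (5.79 to 9.25). The first value rests on 462 UMIs in 30 cells, of which a single cell of run 6 held 195, and it was 35.1 without run 6. The first arm was higher in 5 of 8 runs and the second in 2.

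Clec10a and Mgl2 encode paired C-type lectins that bind galactose sugars and mark macrophages and dendritic cells under type 2 cytokines. The genes lie 18646 bases apart on chromosome 11 (Clec10a 70156197 to 70170834, Mgl2 70130329 to 70137550, both on the plus strand). Their transcripts are 85.6% identical over 1306 aligned bases, but of the last 300 bases, where a 3' kit reads, only 65 aligned, at 72.3% identity. Among the 10 groups, both were highest in interstitial macrophages, Clec10a at 17.0 CPM (13.2 to 21.5) and Mgl2 at 29.3 CPM (24.3 to 35.1). For Clec10a monocytes followed at 4.32 CPM and the remainder at 2.74, and the intervals of the remainder, inflammatory macrophages (1.71) and alveolar macrophages (1.28) overlapped. The other groups held at most 0.412 CPM of it. For Mgl2 the remainder held 8.69 CPM, AT1 cells 6.60, T cells 3.50, alveolar macrophages 0.696 and monocytes 0.146, and the other 4 groups 0 UMIs. The values of AT1 cells and alveolar macrophages each rest on 6 UMIs in 1 cell, and that of T cells on 17 UMIs in 2 cells of run 3, of which 1 cell held 16.

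Neither lectin was found in most interstitial macrophages. Clec10a had a UMI in 44 and Mgl2 in 35 of the 366 cells, and 12 and 6 cells held 50% of their UMIs. After thinning, 3.09% (1.55 to 5.46) and 4.78% (2.81 to 7.54) of the cells had a UMI. By run, Clec10a ranged from 6.63 CPM in run 4 to 38.4 in run 3 with a median of 16.5, above monocytes in 6 of 6 runs. Mgl2 ranged from 6.69 CPM in run 7 to 73.3 in run 3 with a median of 19.6, above the remainder in 5 of 6 runs. Without the 10 cells richest in it Mgl2 was at 10.0 CPM, and it was at 49.1 CPM without cells that passed more than 1 gate. Interstitial macrophages with Mgl2 held 60.2 CPM of Clec10a (39.7 to 87.6) and those without 11.6 (8.39 to 15.7), with median depths of 9304 and 7540 UMIs.

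Dendritic cells in the remainder held both lectins as well. The 113 cells with at least 2 UMIs of Flt3, Cd209a and Xcr1, genes of conventional dendritic cells, held Mgl2 at 90.5 CPM (72.6 to 112) and Clec10a at 28.8 CPM (19.1 to 41.6). Both levels were above the 29.3 and 17.0 CPM of interstitial macrophages, with overlapping intervals for Clec10a. These Mgl2 UMIs came from 10 cells, at 558 CPM in run 3, 266 in run 5, 20.6 in run 7 and 0 in runs 1 and 6, so the level in this gate rests on a few cells of 2 runs and was 41.0 CPM without run 3. Of the 28 Clec10a UMIs in this gate, 11 lay in 1 cell of run 1, and run 6 held 0. In the 95 cells with Ccr7 and Fscn1, genes of migratory dendritic cells, Mgl2 was at 3.36 CPM and Clec10a at 0. Over all groups, 26 cells had both lectins, which is 14.1% of the cells with Clec10a and 31.7% of those with Mgl2.

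The receptor chains and Stat6 were spread over many groups. Il4ra (chromosome 7, 125552120 to 125579474, plus strand) was at 96.0 CPM (84.1 to 109) in endothelium and 90.3 CPM (76.3 to 106) in neutrophils, which did not differ beyond counting error (1.06-fold, 0.862 to 1.32). Endothelium was higher in 2 of the 4 runs that held both. Inflammatory and interstitial macrophages followed at 59.9 and 59.2 CPM. The remainder, alveolar macrophages and monocytes held 45.3, 44.4 and 42.7 CPM with overlapping intervals, and T cells 31.1. AT2 cells held 7.44 CPM and AT1 cells 3.30, the lowest values of the 10 groups. In the endothelial group 188 of the 601 cells also passed a later gate, and the median depth of 2724 UMIs was the lowest of all groups. In every alternative computed, the level in endothelium stayed above that in neutrophils, by a log2 ratio of 0.01 to 0.37.

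By run, Il4ra in endothelium was lowest in run 3, at 42.9 CPM on 3 UMIs, with a median of 85.2 and a highest value of 131 in run 1. In neutrophils it ranged from 39.6 to 116 CPM over 5 runs, so the groups overlapped. After thinning, 19.6% of endothelial cells (15.9 to 23.7), 21.3% of neutrophils (16.8 to 26.3) and 9.04% of alveolar macrophages (7.30 to 11.0) had an Il4ra UMI.

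Il13ra1, the chain that joins Il4ra to bind Il13 (chromosome X, 36112110 to 36171259, plus strand), was highest in neutrophils at 128 CPM (111 to 147). Monocytes followed at 89.4 CPM, with more in the Ace and Adgre4 arm (102, 95.4 to 108) than in the Ly6c2 and F13a1 arm (70.6, 64.6 to 77.0), in 8 of 8 runs. Interstitial and inflammatory macrophages held 71.8 and 67.7 CPM, the remainder 46.1 and alveolar macrophages 45.6, with overlapping intervals within each pair. AT2 cells, endothelium and AT1 cells held 18.7 to 27.0 CPM, and T cells only 1.85 (0.848 to 3.52). T cells thus had Il4ra at 31.1 CPM almost without Il13ra1, and type 2 innate lymphoid cells had Il4ra at 20.9 CPM with 0 UMIs of Il13ra1. In neutrophils the runs ranged from 39.9 to 172 CPM with a median of 126, and they were above monocytes in 3 of 5 runs.

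Stat6 (chromosome 10, 127642986 to 127660957, plus strand) was likewise highest in neutrophils, at 103 CPM (88.1 to 120). Monocytes, alveolar, inflammatory and interstitial macrophages held 69.2, 65.6, 64.0 and 62.9 CPM, and these 4 did not differ beyond their intervals. The remainder held 52.0 CPM, and endothelium, T, AT2 and AT1 cells 20.9 to 28.4 CPM with overlapping intervals. Neutrophils ranged from 86.3 CPM in run 1 to 173 in run 7 with a median of 137, and monocytes were below them in 5 of 5 runs. The fold of neutrophils over monocytes was 1.49 (1.26 to 1.75). The neutrophil group held Siglecf, a gene of alveolar macrophages and eosinophils, at 81.7 CPM, against 72.8 in alveolar macrophages, and its part in the Il13ra1 and Stat6 levels was not tested.

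**Figure D4:**
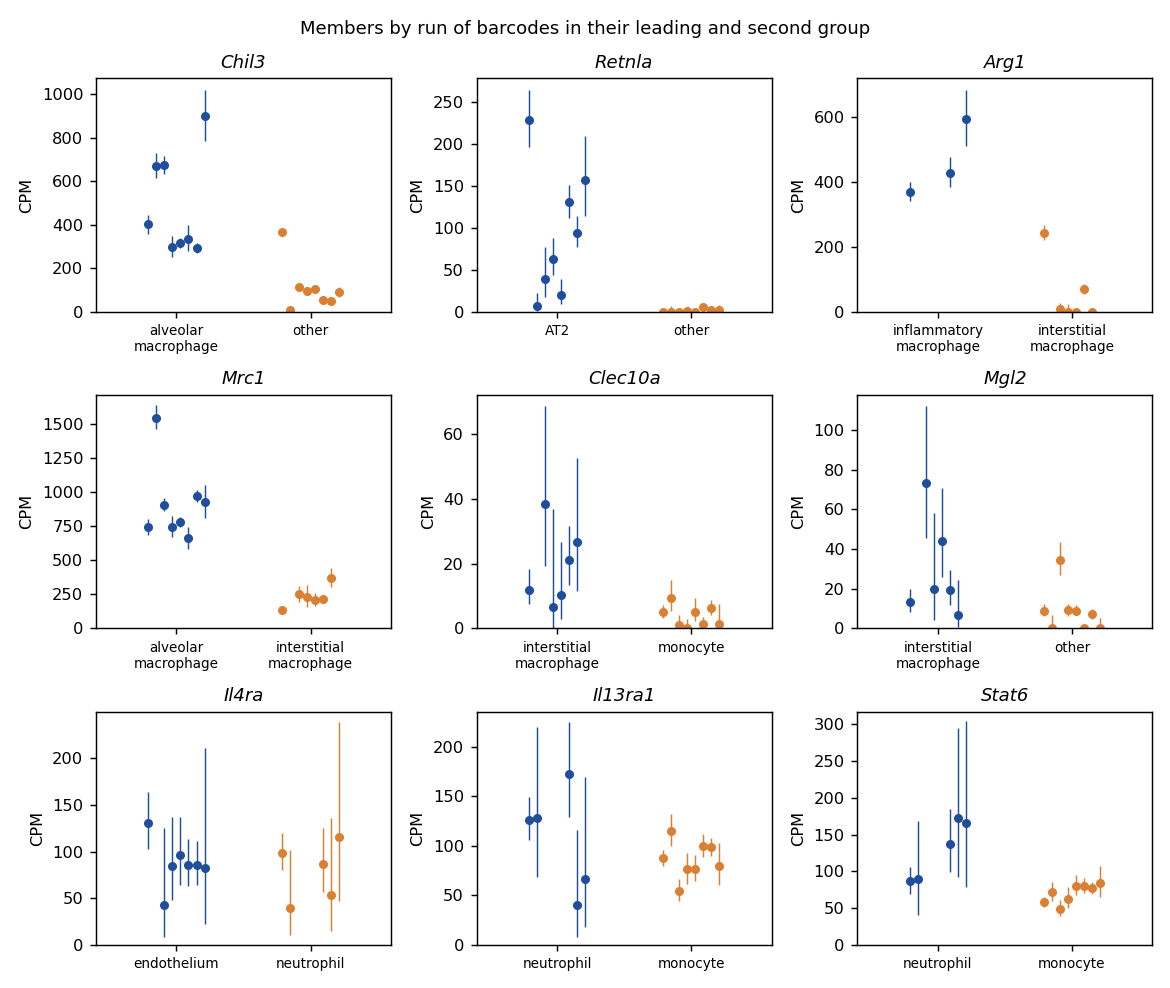
CPM of each member by run of barcodes in its leading group (blue) and the next group (orange), for runs with at least 10 cells of the group, in run order from left to right, with exact Poisson 95% intervals as bars. The blue points of Chil3, Retnla, Arg1, Mrc1, Clec10a and Stat6 lie above the orange point of the same run wherever both are shown, while those of Il4ra overlap the orange ones.

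The ligands were low in each group taken as a whole. Il4 reached at most 1.12 CPM and Il13 2.67 CPM, both in the remainder. Over all groups, 44 UMIs of Il4 lay in 30 cells and 86 of Il13 in 24 cells. A level of a whole group does not show whether a few of its cells are rich in a ligand. Levels of the ligands in subsets of the remainder are not given here. Il2rg, the gamma chain, was highest in T cells at 133 CPM, 4.18-fold above all other cells, and the decoy receptor Il13ra2 had 1 UMI. Of 8 Jak and Stat partners and their inhibitors, 7 reached 20 CPM and 1, Cish, exceeded all other cells at least 4-fold, in endothelium at 74.1 CPM, where 28.2% of all genes at that level did. Jak1, the kinase bound to Il4ra, was at 324 CPM in T cells and at 77.95 to 251 CPM in the other 9 groups. Socs3, an inhibitor of Jak signalling, was at 197 CPM in endothelium and at 7.31 in alveolar macrophages.

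Among 25 other genes of alternative activation, 14 reached 20 CPM. Of these, 5 exceeded all other cells at least 4-fold, against 28.2% of all genes at that level, which is near the background. A macrophage group led for 9 of the 14, against 17.9% of all genes, and neutrophils for 4. Pparg, a lipid-sensing factor that alveolar macrophages need, led there at 222 CPM with Chil3 and Mrc1. Trem2 led in interstitial macrophages at 354 CPM, and Fn1 and Klf4, a transcription factor, in inflammatory macrophages at 1841 and 476 CPM. The cytokine antagonist Il1rn and the crosslinking enzyme Tgm2 led in neutrophils at 603 and 415 CPM. Cd163, a haemoglobin scavenger receptor, did not exceed 0.657 CPM in any group. Of 14 genes of classical activation, 9 reached 20 CPM and 5 exceeded all other cells at least 4-fold, with 3 led by a macrophage group, beside the same 28.2% and 17.9% of all genes. Nos2 led in inflammatory macrophages at 37.6 CPM, the group in which Arg1 led, and Il1b in neutrophils at 3570 CPM.

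Around Arg1, all 10 genes of arginine use reached 20 CPM, and 4 exceeded all other cells at least 4-fold, a share not far from the 28.2% of all genes. The arginine transporter Slc7a2 was at 434 CPM in alveolar and 392 CPM in inflammatory macrophages, and the mitochondrial arginase Arg2 led in neutrophils at 238 CPM. Oat, which converts ornithine, led in AT2 cells at 201 CPM. Among 7 relatives of Chil3 and Retnla, 4 reached 20 CPM, all of them at least 4-fold higher there than in other cells, beside 28.2% of all genes, and none led by a macrophage group. Chil1 and the chitinase Chia1 led in AT2 cells at 1377 and 34.1 CPM, as Retnla did, and the resistin-like Retnlg and Retn led in neutrophils at 2752 and 20.7 CPM.

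**Figure D5:**
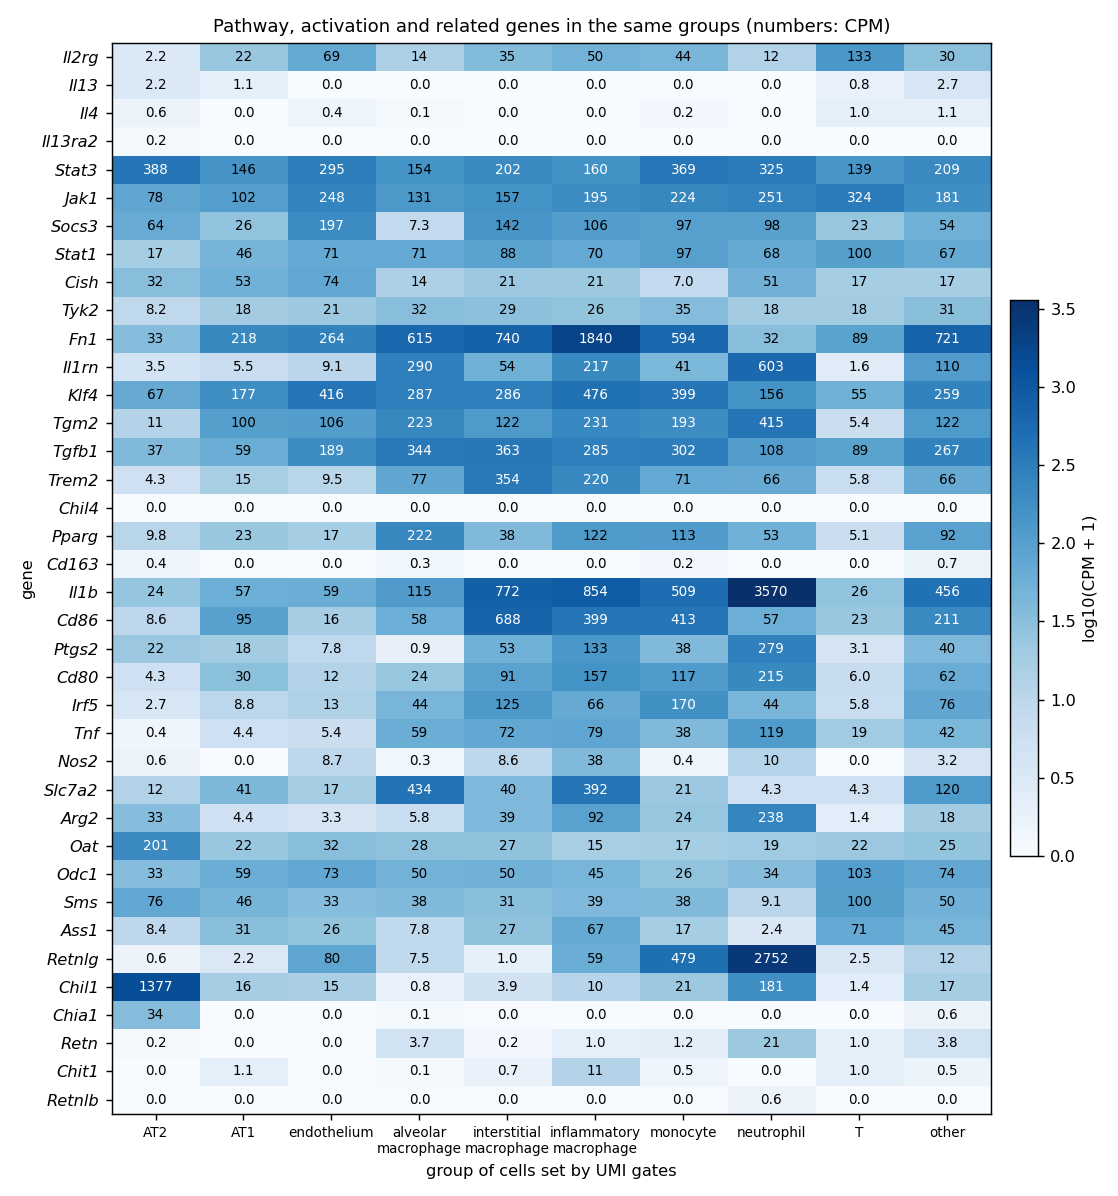
CPM of the ligands and chains, signalling partners, activation genes, arginine genes and relatives (rows) in the same 10 groups (columns), with colour on a log10(CPM + 1) scale. Il4 and Il13 are under 3 CPM in every group, Pparg is highest in alveolar macrophages (222), Nos2 in inflammatory macrophages (38) and Chil1 in AT2 cells (1377).

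For each member the genes with the most similar levels over the 10 groups were sought by Pearson's r of log2(CPM + 10) among 10302 genes, as a description with no test, since the groups share libraries and the members of a pattern share depth. Closest to Chil3 were E230016K23Rik (r = 0.97), Baz1a (0.95) and the chemokine Ccl6 (0.95), and to Mrc1 Slamf9 (0.98), Il18 (0.97) and Tbxas1 (0.96). Retnla was most like Krt23, 5033403H07Rik and Mlc1, which also led in AT2 cells at 37.2, 27.8 and 66.2 CPM. Arg1 was most like Slamf7 (0.96), St18 (0.95) and Htr7 (0.92), Clec10a like Htra3 (0.97), Ntpcr (0.97) and Aif1 (0.94), and Mgl2 like Cd72 (0.93), Fcrls (0.90) and Gpr34 (0.85). Il4ra was near Ddx23 (0.96) and Sipa1 (0.92), Il13ra1 near Gm34455 (0.98), Fos (0.98) and Rassf3 (0.96), and Stat6 near Dazap2 (0.99), Apobr (0.98) and Msrb1 (0.98). Between members, the highest values were 0.85 for Il13ra1 with Stat6, 0.79 for Clec10a with Mgl2, 0.78 for Chil3 with Stat6 and 0.74 for Chil3 with Mrc1. Retnla had negative values with all 8 others, from -0.56 with Il4ra to -0.17 with Il13ra1.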

How the data were processed

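The deposited values were raw UMI counts in 1 table of 32285 genes and 11806 cells with 77020720 UMIs. Per the submitters' processing notes, Cell Ranger 1.3.1 and the build mm10 were used, and the libraries came from a droplet 3' kit, per the labels' protocols. How strand, introns and shared reads were handled is not stated by any source used. The cells had been filtered before deposit, since no cell had under 800 genes or over 9.99% mitochondrial counts. UMIs remove amplification copies but not free RNA caught in droplets of other cells, and it was not subtracted.

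The members, gates and gene lists were chosen with earlier results of these data known. Counts were summed per group of cells and divided by the group's total (CPM). Folds of 2 summed counts carry exact conditional binomial 95% intervals and shares exact Clopper-Pearson ones. All cover counting error only, and a count of 0 was read as allowing 3 counts. Run values are shown from 10 cells. For shares of cells with a UMI, each of 10383 cells was thinned to 2000 UMIs at random and shallower cells were left out. Named besides the members were the 3 genes most like each, the up to 6 highest of each list and 8 genes set by name, beside gate and marker genes of the groups compared. One of these genes is not reported here. Other named genes in comparisons of cells with and without a member were chosen after values had been seen, as were the motifs. Doublets were kept, and as an alternative 193 cells with the highest scores of Scrublet in scanpy 1.11.5 were left out, at 0.8% per 1000 cells of a run. Positions are from GENCODE vM21 on mm10, and transcripts were aligned whole. Fold intervals were tested on simulated data, and the outcome is not given here. They treat UMIs as independent counts, although for Retnla 8 AT2 cells held 50% of the UMIs of that group. Work was done in Python 3.11.15 with numpy 2.4.6, scipy 1.17.1 and pandas 2.3.3. The planned edgeR test of hyperoxia against air was not run, since cells could not be tied to libraries.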

Additional observations from a re-analysis of the deposited data

How the results depend on the processing

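The counts of members and the 9 leading levels with their ratios to the next group were recomputed under 8 alternatives and by leaving out each of 8 runs. The count of members highest in a macrophage group was 5 under all 16 settings, and on leaving out runs it ranged from 5 to 5. None of the settings named here gave dendritic cells a gate. The count therefore could not change through their levels of Clec10a and Mgl2. The count that exceeded all other cells at least 4-fold was 5 to 6 over both kinds of setting, with 6 without cells that passed more than 1 gate and without run 1. Of 144 recomputed leading levels, 114 lay within the counting interval and 1 was more than 1.5 times away, Mgl2 in interstitial macrophages at 49.1 in place of 29.3 CPM without cells that passed more than 1 gate. Its log2 ratio over the remainder was then 2.50 in place of 1.76. No leading group lost its lead to the next group in these settings. The log2 ratio of Il4ra in endothelium over neutrophils, 0.09, ranged from 0.01 to 0.37. That of Retnla in AT2 cells over the remainder, 6.36, was 7.12 with gates on thinned cells and 5.76 with doubled gate minimums, and 5.79 to 7.45 on leaving out runs. Leaving out cells with at least 3 Dppa5a UMIs, which kept 11348, and applying the inflammatory gate first were alternatives chosen after seeing the data. So was leaving out each run for the lower levels and the subsets of groups. Values are printed beside only some of those that moved by over 1.5 times. A level printed without such a value is therefore not shown to be stable over runs. The causes of these shifts were not tested.

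No paired analysis was possible because the columns carry no replicate number and no library name. The alternatives to the test of hyperoxia against air, with a replicate block or with DESeq2, were not run for the same reason. Depth limits Clec10a, with 250 UMIs in the whole table, and Mgl2 and Retnla in single runs, where levels rest on as few as 1 to 3 UMIs. Groups set by gates on a few transcripts miss shallow cells, and 38.9% of the cells passed no gate.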

Other observations

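The remainder was the group with the most varied content, and the members differed within it. Of its 4588 cells, 362 had at least 3 UMIs of Dppa5a, a gene of pluripotent cells. These cells held little of any member: Stat6 was at 19.5 CPM (15.4 to 24.5), Il4ra at 4.12, Il13ra1 at 5.92 and Mrc1 at 7.20, and the other 5 members at most 0.772 CPM. B cells, taken as 134 cells with Cd79a and Ms4a1, held Il4ra at 36.6 CPM (22.4 to 56.5) and Stat6 at 49.4 CPM (32.6 to 71.9) but 1 UMI of Il13ra1, and 109 of them came from 1 run. The 95 migratory dendritic cells held Il4ra at 55.0 CPM (40.7 to 72.7), and the 113 conventional dendritic cells at 17.5 CPM (10.2 to 28.0). Without run 7 these were 35.6 and 11.1 CPM.

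Natural killer cells, taken as 166 cells with Ncr1 and Klrb1c, held Arg1 at 24.2 CPM (15.1 to 36.6) in 16 cells. Of the 3 cells with Mcpt8 and Cpa3, genes of basophils and mast cells, 0 had a UMI of any member, which is too few to show a level. Arg1 and Mrc1 were found together in 147 cells, which is 28.8% of the cells with Arg1 and 5.67% of those with Mrc1. Of all 11806 cells, 2591 had Mrc1. After thinning, 25 of the 245 cells with Arg1 had Mrc1, against 1715 of all 10383 cells, a lower share. Chil3 in inflammatory macrophages was at 87.4 CPM (70.7 to 107) in cells with Arg1 and at 36.0 CPM (27.8 to 45.7) in those without, and at 40.7 and 38.2 CPM without run 8.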
